A study of Mus musculus with 6 samples.

Results

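Genes that mark injury and repair of the renal tubule were followed in proximal tubules dissected from Clcn5 knockout and wild type mice. The set holds 10 genes by name, and its members are the probe sets of the array that are annotated with the symbol of 1 of them and no other. This gave 22 probe sets of 9 genes, out of 34945 probe sets and 18193 genes with a single symbol. Spp1, which encodes the secreted matrix protein osteopontin, matched no probe set by this rule and was not analysed here. Clcn5 encodes ClC-5, an endosomal chloride/proton exchanger whose loss in humans causes Dent disease. The knockout group consisted of 3 arrays of RNA from Clcn5 knockout tubules and the control group of 3 arrays of RNA from wild type tubules, with no treatment in either group. Strain, sex, age and the deleted part of Clcn5 are not given in the sources used here. Each array carried RNA pooled over mice, from 80 to 100 tubule pieces of 2 mm per kidney, with 3 to 4 mice in a pool by the labels and 7 by the records kept for each array. The same records describe replicates as biological, so the tests measure the spread between RNA pools.

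Tubule cells that are injured lose part of their differentiated state, and surviving cells spread, divide and rebuild the epithelium. During this process they switch on genes that are little used in the healthy proximal tubule. Havcr1 encodes KIM-1, a membrane receptor with which injured proximal cells bind and engulf dead cells. Lcn2 encodes the secreted iron carrier protein NGAL, and Clu the secreted chaperone clusterin. Vcam1 and Cd44 encode surface adhesion proteins, the latter a receptor for hyaluronan and osteopontin. Krt8, Krt18 and Krt19 encode keratins of simple epithelia, and Sox9 a transcription factor of regenerating tubule cells.

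Values are MAS5 signals, which summarise the probes of a probe set, and the trimmed mean of every array was 150. A gene entered the test if a probe set of it reached a geometric mean signal of 41.9 over the 6 arrays, the median of all probe sets, and it was then represented by its brightest probe set. Of the 9 genes, 5 passed this filter: Havcr1, Clu, Krt8, Krt18 and Vcam1. All probe sets of Lcn2, Krt19, Sox9 and Cd44 were dimmer, and without detection calls their signals could not be told from background. The precision is limited by the number of arrays, with a median standard error of 0.115 for a log2 change. Clcn5 itself was lower in knockout on all 4 of its probe sets without overlap of the groups, with signals of 269 to 352 against 709 to 1029 on 1420295_x_at. Of all 11620 genes tested with limma, 377 were higher and 376 lower in knockout at an adjusted p under 0.05, which is 3.24% in each direction. The median log2 change of all tested genes was 0.01.

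Of the 5 tested injury and repair genes, 2 rose in the knockout tubules, Havcr1 and Clu, and none fell. By limma, 3 of the 5 had an unadjusted p under 0.05, which 19.4% of all tested genes had, and in 3 of the 5 the signals of the groups did not overlap, as in 25.2% of all tested genes. The 3 are Havcr1, Clu and Krt18, and the median log2 change of the 5 was 0.40. Over all 22 probe sets, dim ones included, 17 log2 changes lay above 0 and 5 below, where 50.8% of all probe sets were above 0. In a limma fit of all 45037 probe sets without a filter, 6 of the 22 were higher at an adjusted p under 0.05 and none was lower, where 0.913% of all probe sets were higher and 0.979% lower. These 6 came from 3 genes, 4 of them from Clu. The summed signal of leukocyte markers was also higher on the knockout arrays, at 4771 to 5071 against 3367 to 3399, mostly through Cd74, H2-Aa and Csf1r. Sums were higher too for markers of podocytes, the S3 segment, the loop of Henle, the distal and connecting tubule, and fibroblasts and mural cells. The part of leukocytes and of these other cell types in these results was not tested. In RNA from whole tubules, more cells of a type and more RNA per cell cannot be told apart. Every knockout signal lay above every wild type signal on 10 of the 22 probe sets, and below on 1. Over all probe sets these shares were 9.03% and 8.6%. The 10 include all 4 probe sets of Clu, and probe sets of Lcn2, Vcam1 and Cd44 with a mean below the filter. Probe sets of 1 gene were read on the same arrays, so the counts over the 22 are not counts of independent values. Without the intensity trend of the variance none of the 22 was called in the limma fit of all probe sets, although Havcr1 and Clu passed again in the gene fit (adjusted p = 0.00317 and 0.0125).

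**Figure D1:**
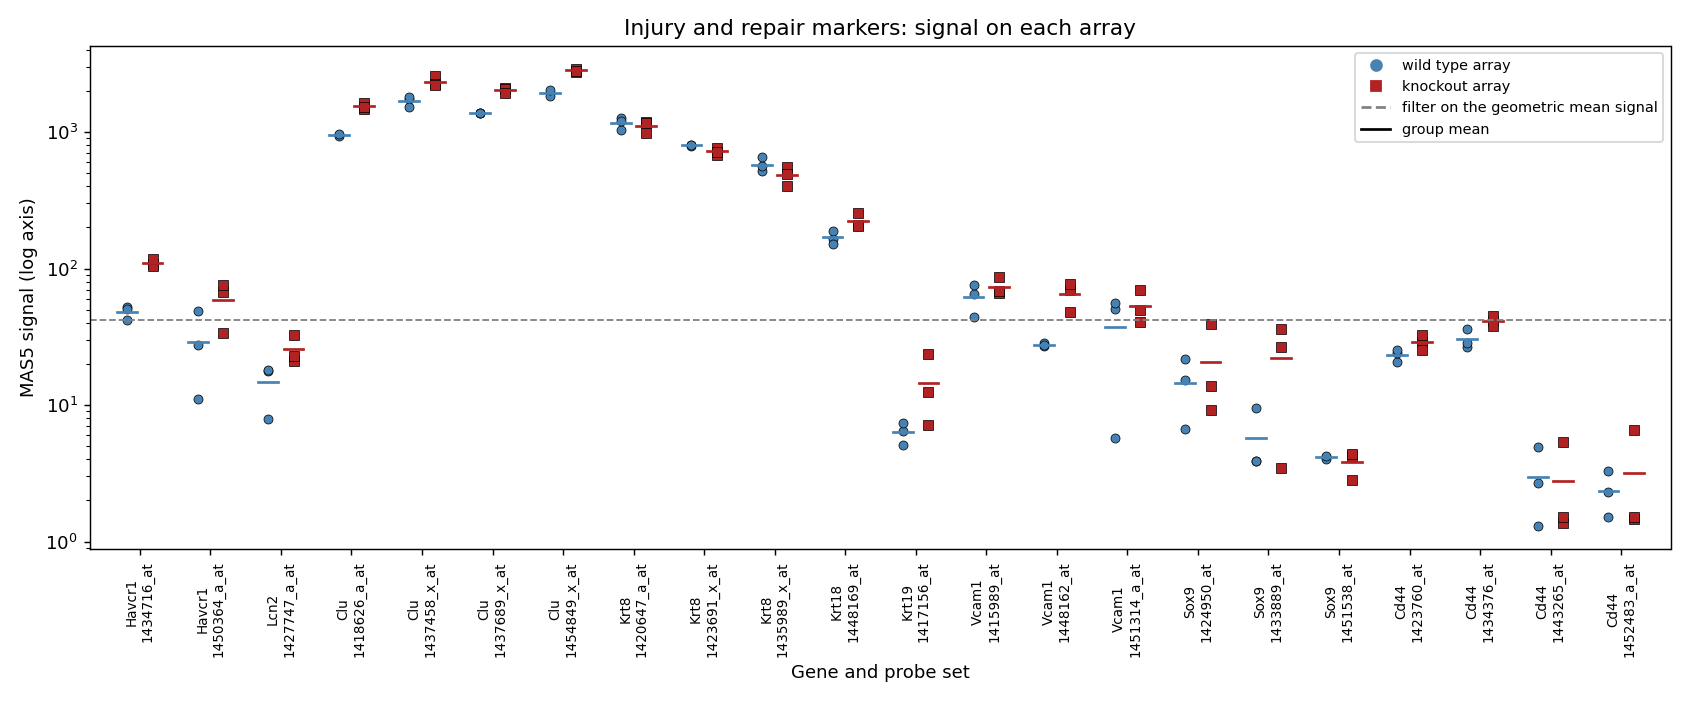
MAS5 signal (log axis) of each probe set of the injury and repair genes on the 3 wild type arrays (circles) and the 3 knockout arrays (squares), with the mean of each group as a short line and the filter at 41.9 as a dashed line. The groups are apart on 1434716_at of Havcr1 and on all 4 probe sets of Clu, and the probe sets of Lcn2, Krt19, Sox9 and Cd44 lie around or below the dashed line.

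Havcr1 showed the largest change among the 5 tested genes. On 1434716_at the signals were 109, 104 and 117 in knockout and 52.2, 50.9 and 41.6 in wild type. All 3 knockout arrays were higher than all 3 wild type arrays, by about the same step. The mean was 110 ± 6.74 (SD, n = 3) in knockout and 48.3 ± 5.77 (SD, n = 3) in wild type, a 2.29-fold rise (limma adjusted p = 0.00142, log2 change 1.20 with an SE of 0.17). The log2 change was 1.19 on fluidics station 1, where 2 arrays of each group were washed and stained, and 1.21 between the single arrays of station 2. The arrays of station 2 also differed in their recorded solution lot, and knockout array 3 was the only array of its lot. The wild type signal is close to the filter, and with 50 added to every signal the log2 change was 0.71 (adjusted p = 0.00113).

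The other Havcr1 probe set, 1450364_a_at, was dimmer. Its signals were 34.0, 67.8 and 75.7 in knockout and 11.1, 27.6 and 48.5 in wild type. The groups overlapped, since knockout array 1 lay below wild type array 3. The log2 change was 1.19 with a 95% interval from 0.00 to 2.37 (SE 0.53, limma adjusted p = 0.424 over all probe sets). It was 0.61 without wild type array 1, 0.97 to 1.68 without any other array, and 0.47 with 50 added to every signal. A name ending in _a_at marks a probe set designed against several transcripts of the same gene.

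Clusterin was bright in both groups and higher in knockout on each of its 4 probe sets. On 1454849_x_at, which represented the gene, the signals were 2770, 2903 and 2791 in knockout and 1921, 1824 and 2037 in wild type. The groups were far apart compared with their spread. The means were 2822 ± 71.3 and 1927 ± 107 (SD, n = 3 each), a 1.47-fold rise (limma adjusted p = 0.000418, log2 change 0.55 with an SE of 0.06). Probe set 1418626_a_at showed the largest step of the 4, 1.63-fold, with 1472, 1630 and 1528 in knockout against 948, 929 and 970 in wild type (adjusted p = 0.00058 over all probe sets). Probe set 1437689_x_at was 1.47-fold higher, with wild type signals that differed by less than 1% from their mean, 1372 ± 6.89 (SD, n = 3). Probe set 1437458_x_at was 1.38-fold higher (adjusted p = 0.0267), a call that ended when any array was left out (0.0507 to 0.0871). Names ending in _x_at mark probe sets with probes that can also bind other transcripts, which applies to 3 of the 4. In the gene fit the log2 change of Clu was 0.51 to 0.59 without any 1 array.

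The remaining secreted member, Lcn2, gave a weak signal. On 1427747_a_at the knockout signals were 32.8, 21.1 and 22.7 and the wild type signals 17.9, 18.2 and 7.84. The knockout arrays lay above the wild type arrays, but all 6 were below the filter. The log2 change of 0.88 had a 95% interval from −0.14 to 1.89 (limma adjusted p = 0.506 over all probe sets). It was 0.47 without wild type array 3 and 0.23 with 50 added to every signal.

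**Figure D2:**
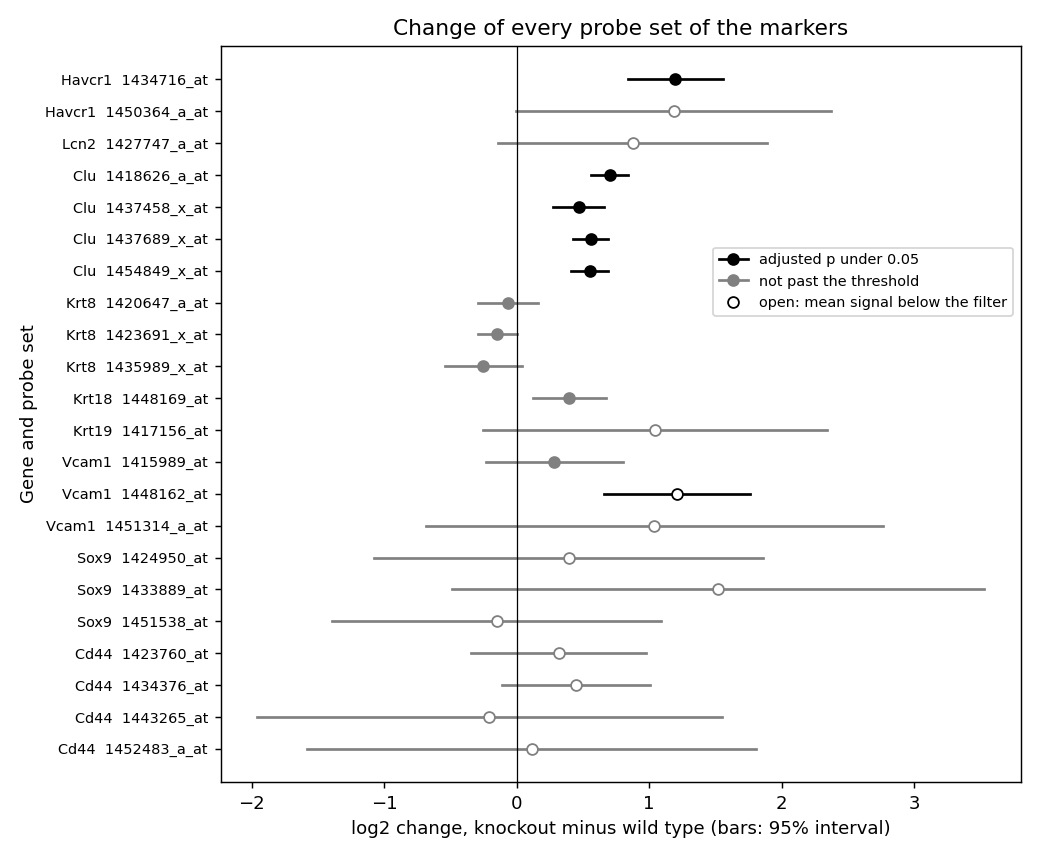
log2 change, knockout minus wild type, of each of the 22 probe sets with its 95% interval, from the limma fit of all probe sets; black marks an adjusted p under 0.05 and open circles a mean signal below the filter. The 4 Clu probe sets have short intervals between 0.28 and 0.84, the points of Krt8 lie below 0 with intervals that include it, and the dim probe sets of Sox9 and Cd44 have wide intervals that include 0.

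Keratins 8 and 18 pair with each other to form the filaments of simple epithelia, so their genes are shown side by side. The windows of 250 bases before their annotated starts are printed because the log2 changes of the pair differed in sign on the probe sets that represented them, with that of Havcr1 as the tested member that changed most. Sequences and coordinates are those of RefSeq on GRCm38.p6, and the table held a window for 5 of the 9 measured genes. The Havcr1 window lies at chr11:46739973-46740222 on the plus strand and is the most upstream of 3 annotated starts. The Krt8 window lies at chr15:102004343-102004592 on the minus strand and the Krt18 window at chr15:102027966-102028215 on the plus strand. Letters run 5′ to 3′, and capitals mark a match to a searched motif.
Havcr1: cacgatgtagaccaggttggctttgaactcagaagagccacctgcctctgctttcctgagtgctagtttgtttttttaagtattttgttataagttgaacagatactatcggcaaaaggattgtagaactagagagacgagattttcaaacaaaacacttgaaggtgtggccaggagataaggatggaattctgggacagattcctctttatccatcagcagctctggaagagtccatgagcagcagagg
Krt8: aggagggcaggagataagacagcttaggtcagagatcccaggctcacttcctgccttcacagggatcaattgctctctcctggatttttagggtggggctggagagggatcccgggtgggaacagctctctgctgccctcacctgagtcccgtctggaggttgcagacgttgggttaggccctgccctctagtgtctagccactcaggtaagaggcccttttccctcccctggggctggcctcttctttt
Krt18: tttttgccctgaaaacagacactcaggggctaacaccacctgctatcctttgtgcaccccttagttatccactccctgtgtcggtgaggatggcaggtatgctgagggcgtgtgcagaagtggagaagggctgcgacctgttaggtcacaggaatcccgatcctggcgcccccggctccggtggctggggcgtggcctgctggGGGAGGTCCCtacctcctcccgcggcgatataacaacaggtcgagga
The motifs searched on both strands were the TATA box TATAAA, the AP-1 site TGANTCA, the CCAAT box, the Sp1 site GGGCGG and the kappaB consensus. The only match in these windows was GGGAGGTCCC in Krt18, a kappaB consensus match 47 to 38 bases before the start. Of all 32851 windows of this length, 7.25% hold the kappaB consensus, 6.75% the AP-1 site, 12.4% the TATA box, 33.8% the CCAAT box and 32.7% the Sp1 site. A match describes letters only, and these data do not measure binding.

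Krt18 was measured by 1448169_at. Its signals were 254, 208 and 206 in knockout and 166, 152 and 189 in wild type. The knockout arrays all lay above the wild type arrays, with the gap between knockout array 3 and wild type array 3 smaller than the spread within either group. The mean was 223 ± 27.5 against 169 ± 18.7 (SD, n = 3 each), a log2 change of 0.40 with a 95% interval from 0.13 to 0.66 that did not pass the threshold (SE 0.12, unadjusted p = 0.00771, limma adjusted p = 0.0889).

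Krt8 had 3 probe sets, none of which passed the threshold. On 1420647_a_at, which represented the gene, the signals were 1188, 1172 and 983 in knockout and 1272, 1032 and 1202 in wild type. The groups overlapped, and the 95% interval of the log2 change ran from −0.28 to 0.14 (limma adjusted p = 0.768). The log2 change itself was −0.07, and 0.020 without knockout array 3. On 1423691_x_at the knockout signals of 767, 683 and 712 lay below the wild type signals of 796, 791 and 801, with a log2 change of −0.15 (adjusted p = 0.435 over all probe sets). On 1435989_x_at the log2 change was −0.25 and the groups overlapped (adjusted p = 0.499), and it was −0.13 without knockout array 3, −0.16 without wild type array 3 and −0.14 on station 1 alone.

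The pair was also compared within each array, a comparison chosen after the values were seen. The log2 signal of Krt18 minus that of Krt8 was −2.22, −2.49 and −2.26 in knockout and −2.94, −2.76 and −2.67 in wild type. The groups did not overlap, and the mean difference was 0.47. The exact permutation test, two-sided, gave p = 0.1, which is the smallest it can give with 3 arrays against 3. The test could therefore not pass the threshold, and it could not decide whether the pair changed unequally. Neither gene passed in the gene fit, which tests each gene alone and not their difference. Krt19 was dim on its only probe set, 1417156_at, with signals of 7.16, 23.7 and 12.4 in knockout and 6.45, 5.12 and 7.33 in wild type. The groups overlapped, and its log2 change of 1.04 had a 95% interval from −0.26 to 2.34. It was 0.60 without knockout array 2 and 0.19 with 50 added to every signal.

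The 3 probe sets of Vcam1 did not give the same answer. On 1415989_at, which represented the gene, the signals were 65.9, 68.3 and 86.2 in knockout and 65.0, 75.5 and 43.8 in wild type. These groups overlapped, and the log2 change of 0.28 had a 95% interval from −0.23 to 0.79 (SE 0.23, limma adjusted p = 0.572). It was 0.059 without wild type array 3, 0.16 without knockout array 3, 0.45 without wild type array 2, and 0.16 with 50 added to every signal. On 1448162_at the signals were 69.5, 76.9 and 48.1 in knockout and 26.9, 28.2 and 27.4 in wild type. Here the groups were apart, the wild type arrays were nearly equal, and the signal was 2.31-fold higher in knockout (log2 change 1.21, SE 0.24, adjusted p = 0.0438 over all probe sets). The mean of this probe set lay below the filter. Among the alternatives run, only the one without knockout array 3 kept the call (adjusted p = 0.0258). Without any other array the adjusted p was 0.128 to 0.189. It was 0.0843 with 50 added to every signal, where the log2 change was 0.56, 0.0772 after quantile normalization, 0.143 without a trend, 0.0829 on station 1 alone and 0.0567 with the station as a block. On 1451314_a_at the log2 change of 1.04 rested on wild type array 3, at 5.70 against 40.6 to 69.3 on the other arrays. Without that array it was −0.03.

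Cd44 and Sox9 were at the dim end of the array. The brightest Cd44 probe set, 1434376_at, had signals of 41.1, 37.7 and 45.0 in knockout and 26.8, 28.5 and 35.9 in wild type, and on 1423760_at they were 29.1, 32.4 and 25.5 against 20.6, 23.9 and 25.3. On both the knockout arrays lay above the wild type arrays, by log2 changes of 0.45 and 0.32 whose 95% intervals included 0 (adjusted p = 0.542 and 0.751 over all probe sets). They were 0.18 and 0.11 with 50 added to every signal. The other Cd44 probe sets stayed at or under a signal of 6.54 on every array. Sox9 was measured by 3 probe sets, with signals of at most 39.1, and the groups overlapped on each. On 1433889_at they were 3.48, 26.5 and 36.3 in knockout and 3.86, 9.47 and 3.88 in wild type. Knockout arrays 2 and 3 were high there and knockout array 1 was lower than all wild type arrays, and the log2 change of 1.52 had a 95% interval from −0.49 to 3.53. It was 2.57 without knockout array 1, 0.88 without knockout array 3 and 0.34 with 50 added to every signal.

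Other genes known from injured tubules moved in both directions. Of 39 genes on this list, 35 had a probe set and 30 were tested, of which 5 rose and 5 fell, against 3.24% of all tested genes in each direction. Without 1 array 2 to 7 rose and 3 to 5 fell. The number that rose was 2 with wild type array 1 left out, 3 with either of the other wild type arrays or knockout array 1 left out, and 7 with knockout array 3 left out. The number that fell was 3 with wild type array 3 left out. On station 1 alone 5 rose and 2 fell, and without an intensity trend 2 rose and 5 fell. The median log2 change was 0.10. Sox4, a transcription factor related to Sox9, had signals of 637, 760 and 685 in knockout and 351, 404 and 414 in wild type. This was 1.78-fold higher (SE 0.09 on the log2 scale, limma adjusted p = 0.000227), but its other kept probe sets had log2 changes of 0.75, 0.28, −0.08 and −0.38. With the mean of its probe sets the call of Sox4 ended (log2 change 0.28, adjusted p = 0.214). Atf3, a transcription factor induced by stress, had signals of 200, 187 and 161 in knockout and 114, 97.7 and 128 in wild type, 1.61-fold higher without overlap (adjusted p = 0.011).

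The genes that fell included Hmox1, which encodes the heme-degrading enzyme heme oxygenase 1. Its signals were 203, 119 and 138 in knockout and 323, 392 and 312 in wild type, 2.28-fold lower (limma adjusted p = 0.00192, log2 change −1.19 with an SE of 0.18). The fibrinogen chain genes Fga and Fgg were 1.94-fold and 1.91-fold lower, with Fga at 123, 139 and 106 in knockout and 225, 240 and 246 in wild type. Prom1, which encodes the surface protein CD133, was 1.39-fold lower (600 ± 21.7 against 834 ± 22.9, SD, n = 3 each). In none of these did the groups overlap. The calls of Hmox1 and Fgg ended on station 1 alone (adjusted p = 0.0568 and 0.0624), and that of Fgg also without wild type array 3 (0.0523). The 4 remaining called genes are named after their values were seen: Ccn1, Cp and Ccn2 were 1.39-fold, 1.43-fold and 1.25-fold higher, and Il34 was 1.53-fold lower. The call of Ccn1 was lost without wild type array 1 or 3 (highest adjusted p 0.0555), that of Cp without any of knockout arrays 1 and 2 and wild type arrays 1 and 2 (0.106), and those of Ccn2 and Il34 without any array but knockout array 3 (0.169 for both).

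**Figure D3:**
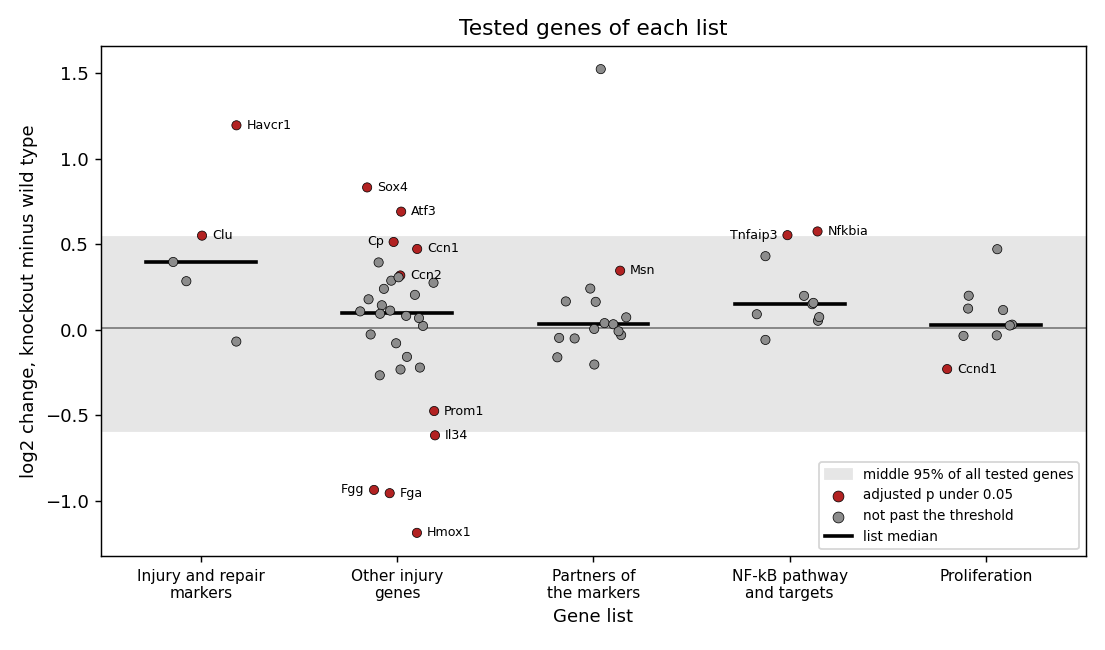
log2 change, knockout minus wild type, of the tested genes of 5 lists, with genes past the threshold in red and the list median as a bar; the grey band holds the middle 95% of all tested genes, from −0.59 to 0.54. Havcr1 lies above the band, Clu at its upper edge, and the other injury genes past the threshold lie on both sides of 0.

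Partners of the markers gave a single call. Of 22 genes for integrins, hyaluronan enzymes, membrane linkers and keratin anchors, 15 were tested, with a median log2 change of 0.03, and 1 of the 15 rose, where 3.24% of all tested genes rose. This was Msn, which encodes moesin, a linker between CD44 and actin. Its signals were 1111, 1295 and 1286 in knockout and 963, 945 and 990 in wild type, 1.27-fold higher (limma adjusted p = 0.015). Leaving out knockout array 2, wild type array 1 or wild type array 2 ended the call (highest adjusted p 0.0653), as did station 1 alone (0.142) and the fit without an intensity trend (0.0959), so that the count was then 0. The highest log2 change of this list, 1.52, belonged to Itgb7, an integrin subunit of lymphocytes, and did not pass (adjusted p = 0.139). Its signals were 50.1, 71.9 and 101 in knockout and 27.6, 56.0 and 9.92 in wild type. The groups overlapped, and the wild type mean of 31.2 lay below the filter of 41.9, so the gene was tested only through its knockout signals.

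Among NF-kB subunits and targets, 2 of 10 tested genes rose and none fell, against 3.24% of all tested genes in each direction, with a median log2 change of 0.15. Nfkbia, whose product holds NF-kB in the cytoplasm and is itself an NF-kB target, had signals of 2357, 2443 and 2523 in knockout and 1661, 1535 and 1721 in wild type. It was 1.49-fold higher (SE 0.07 on the log2 scale, limma adjusted p = 0.000348), and its 4 other kept probe sets had log2 changes of 0.44 to 0.69. Tnfaip3, a deubiquitinating inhibitor of the pathway, was 1.47-fold higher (adjusted p = 0.0111), a call that ended without wild type array 2 (0.0542) and on station 1 alone (0.0934). Of the proliferation genes, 9 of 20 were bright enough to be tested, and the median log2 change was 0.03. Ccnd1, cyclin D1, was 1.17-fold lower at an adjusted p of 0.0495, a call that ended without any of the 6 arrays (adjusted p up to 0.247).

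Markers of several other cell types were higher on the knockout arrays. The summed signal of 17 leukocyte markers was 4771 to 5071 in knockout and 3367 to 3399 in wild type. Most of this difference came from Cd74, H2-Aa and Csf1r, with means of 1095, 1496 and 873 against 662, 928 and 583. Of the 14 tested leukocyte markers 4 rose, where 3.24% of all tested genes rose. A log2 change above 0 was seen in 13, where 51.7% of all tested genes were above 0, and the median was 0.36. The groups overlapped for Ptprc, Adgre1, Cd68, Lyz2, C1qb, C1qc, Tyrobp and Fcer1g. Itgam, Cd3e and Cd79a were below the filter. For 4 podocyte markers the sums were 1070 to 1362 against 856 to 904, with a median log2 change of 0.52. Of these 4, 2 were higher, beside 3.24% of all tested genes. For 4 markers of the distal and connecting tubule they were 8476 to 8980 against 6881 to 7919. Here 3 of 4 were higher, again beside 3.24% of all tested genes, with a median of 0.41. Most of this difference came from Calb1, with a mean of 5300 against 3917, and Slc12a3 did not rise (log2 change −0.12).

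In the lists of the loop of Henle and the S3 segment, 1 bright marker also made up most of the difference between the sums. The 6 markers of the loop of Henle summed to 7795 to 8346 against 6313 to 6755. Of these 6, 2 rose, Umod and Slc12a1 (log2 changes 0.41 and 0.27), where 3.24% of all tested genes rose. The log2 change was above 0 in 3 of the 6 and below 0 in 3, where 51.7% of all tested genes were above 0. The median was 0.05. Umod alone went from a mean of 3875 to 5155. The 5 markers of the S3 segment summed to 6480 to 6923 against 5296 to 5402, of which Slc7a13 alone went from a mean of 3692 to 4777, and the median was 0.12. Markers of the S1 and S2 segments gave overlapping sums, 29950 to 31800 against 29690 to 33250, with a median of −0.03. Of the 9, 1 fell, where 3.24% of all tested genes fell. It was Slc6a19 (log2 change −0.51, limma adjusted p = 0.000589). All 14 markers of the proximal segments passed the filter, as did all measured markers of the loop of Henle, distal and connecting tubule, podocytes and endothelium. Umod and Calb1 had wild type means of 3875 and 3917. Those of the S1 and S2 markers ran from 1480 (Slc5a12) to 6886 (Slc34a1), with Lrp2 at 4176. Signals of different probe sets do not measure the relative amounts of their transcripts. The sums of the collecting duct overlapped too, at 5260 to 5468 against 5292 to 5763, with a median of 0.05, while its members moved apart. Of the 10 tested genes of the collecting duct, 2 rose and 2 fell, against 3.24% of all tested genes in each direction. The water channel genes Aqp3 and Aqp2 of principal cells fell (−0.53 and −0.49), and the anion exchanger genes Slc4a1 and Slc26a4 of intercalated cells rose (0.58 and 0.27). The other principal cell genes did not pass and went both ways. Their log2 changes were 0.28 for Scnn1g, with the groups apart, 0.13 for Hsd11b2, −0.03 for Scnn1b, −0.06 for Avpr2 and −0.20 for Fxyd4. Endothelial sums overlapped, at 2743 to 3047 against 2804 to 2916, with a median of −0.06 and no member past the threshold. Fibroblast and mural markers summed to 1197 to 1250 against 1085 to 1120, with 4 of 10 below the filter and a median of 0.17 over the others. Urothelium markers summed to 172 to 271 against 199 to 213, with 3 of 5 below the filter and a median of −0.12 over the others. Vcam1 and Cd44 are also expressed by leukocytes, and Clu, Krt8 and Krt18 by other tubule segments. The part of these cell types in the changes of Havcr1, Clu, Sox4, Atf3, Hmox1, Nfkbia and the other named genes was not tested.

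**Figure D4:**
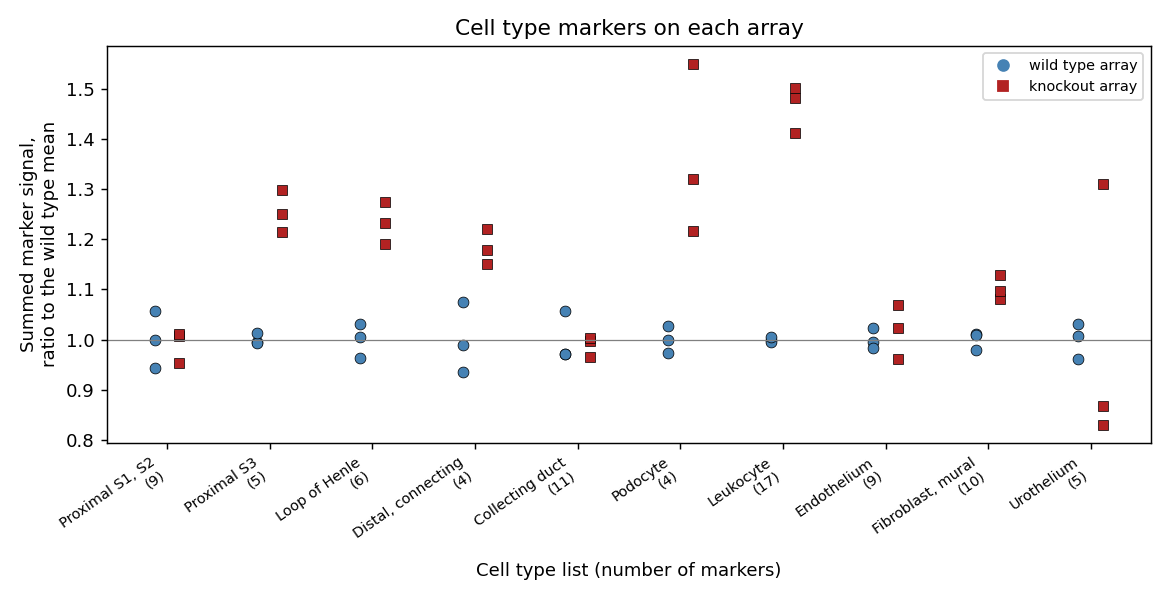
Summed signal of the markers of each cell type on each array, as a ratio to the mean of the wild type arrays. Knockout arrays (squares) lie above the wild type arrays (circles) for leukocyte markers, at 1.41 or more, and for podocyte markers, at 1.22 to 1.55. They also lie above for S3 (1.22 to 1.30), loop of Henle (1.19 to 1.28), distal and connecting tubule (1.15 to 1.22), and fibroblast and mural markers (1.08 to 1.13). The groups overlap for S1 and S2, collecting duct, endothelium and urothelium.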

How the data were processed

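Signals of 6 Affymetrix mouse arrays (Mouse430_2) were used, 3 per group, grouped by the sample titles. The deposited table holds linear signal intensities, for which the submitters' processing notes name GCOS 1.4 and MAS5; detection calls were not used here. Per the labels' protocols, biotin-labelled RNA was made from Trizol extracts by a single amplification with oligo dT priming, so probes read mostly transcript ends. The 64 control probe sets were left out. Genes were named from the platform annotation where a probe set has 1 symbol (34945 probe sets, with 932 carrying several symbols and 9160 none), and no symbol needed updating through RefSeq gene identifiers.

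Log2 was taken with nothing added. The 22519 probe sets at or above the median mean log2 signal were kept, and a gene was its brightest kept probe set. The comparison used limma 3.58.1 in R 4.3.3 (lmFit, then eBayes with the variance trended on intensity), two-sided, on 4 residual degrees of freedom, with p-values adjusted by Benjamini-Hochberg and a threshold of 0.05. A further fit covered all 45037 probe sets. Means and SDs are of linear signals, and folds are ratios of geometric means. On simulated data with 11620 genes, 57.2% of log2 changes of 0.5 and 88.6% of changes of 1 were recovered, with 5% false calls. The simulated noise was normal and independent, with variances from the fit itself, and 200 genes were changed. These rates may therefore not hold for the real arrays.

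The members, lists and tests were chosen with earlier results of these data known. Named are Clcn5, all members, and from each list up to 6 genes past the threshold with the smallest p, or otherwise the 2 with the smallest p; other names are marked or, for Itgb7, single out a list's highest value. The cell type lists are given by sums and medians, with some markers, called or not, that were chosen after their values were seen. Alternatives changed the transform, normalization, filter, choice of probe set and variance model, used station or replicate number as a block or station 1 alone, and left out each array. Plots used Python 3.11.15 and matplotlib 3.10.9.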

Additional observations from a re-analysis of the deposited data

How the results depend on the processing

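Havcr1 and Clu kept their direction and stayed past the threshold in the gene fit under every alternative that tested them. In the fit of all probe sets 1434716_at of Havcr1 missed it on station 1 alone (adjusted p = 0.0816) and without a trend (0.066). Under the stricter filter Havcr1 and Vcam1 were too dim to be tested, so that 1 member was called. The count of all changed genes was 487 without an intensity trend and 453 on station 1 alone, and it ranged from 512 to 733 when 1 array was left out. The called member probe sets numbered 0 without a trend, 3 on station 1 alone and 4 to 5 without 1 array. Whichever array was left out, 2 members were called higher. Called lower members and probe sets numbered 0 in all settings run. In the gene fit 1 member value changed sign, that of Krt8 without knockout array 3 (log2 change 0.020, and −0.16 to 0.020 over the 6 arrays left out in turn, also on probe set 1420647_a_at alone). The other sign changes came from leaving out 1 array and concerned dim probe sets. Their log2 changes then ranged from −0.033 to 1.61 for 1451314_a_at of Vcam1, from −0.20 to 0.84 for 1424950_at and −0.27 to 0.056 for 1451538_at of Sox9, and from −0.84 to 0.26 for 1443265_at and −0.60 to 0.48 for 1452483_a_at of Cd44. With the replicate number as a block, 765 genes were called, with the members Havcr1 (adjusted p = 0.00437) and Clu (0.00136), and 5 member probe sets, and the calls of Ccn2, Il34, Ccnd1 and probe set 1448162_at of Vcam1 (adjusted p = 0.0906) ended. Deviations of same-numbered arrays from their group means correlated at 0.0078, 0.040 and −0.042, so no pairing by number was seen. Low correlations over the 22519 kept probe sets cannot show that the arrays were unpaired. Without detection calls, values under the filter have no known distance from background.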
